A study of Homo sapiens with 4 samples.

Results

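A set of 45 genes that encode proteins of DNA replication origins and forks was examined on 4 arrays of MDS-L and SKM-1 cells. The genes were taken by symbol for their place in replication, from origin licensing to chromatin assembly behind the fork. All 45 were represented on the array, by 115 of its 49395 probe sets, and they are 45 of 18132 genes that have a probe set with a single gene symbol. MDS-L cells treated with DAC and MDS-L cells treated with DMSO gave 1 array each, as did SKM-1 cells treated with DAC and SKM-1 cells treated with DMSO. DAC (decitabine), a nucleoside analog that is built into DNA and traps DNA methyltransferases, was given at 1 μM in 5 pulses of 24 h, and DMSO is its solvent. MDS-L is a human line from a patient with MDS that needs the cytokine IL-3 in its medium, and SKM-1 is a human leukemia line that arose from MDS. All cells grew in RPMI medium with serum and were harvested after the 5 days. The labels name no separate cultures of a condition, and the cell line cannot be told apart from the IL-3 in its medium.

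Eukaryotic replication runs in a fixed order. In G1 phase the origin recognition complex (ORC), CDC6 and CDT1 load the MCM helicase onto origins, and geminin (GMNN) stops CDT1 from loading it again later. At the start of S phase the kinase CDC7 with its partner DBF4 helps to attach CDC45 and the GINS complex to the helicase, which then unwinds DNA. DNA polymerase alpha with primase starts each strand, polymerases epsilon and delta extend the leading and lagging strands on the sliding clamp PCNA, and nucleases and a ligase join the Okazaki fragments. Many of these genes are known targets of E2F factors, which drive transcription as cells enter S phase, and DAC itself is built into DNA only by cells that replicate.

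Every level below is a log2 value as deposited, from the probe set of its gene that was brightest on average over the 4 arrays. On this scale a difference of -1 is a 2-fold lower level with DAC. The background level of an array was set by olfactory receptor probe sets, whose genes are taken as silent here, and lay between 4.85 and 5.07. Of the 45 genes, 44 lay above it on the MDS-L array with DAC and 45 on each of the other 3. No condition was measured on more than 1 array, so no difference within a cell line has a p-value or an error between samples. The one spread available, the pooled SD of log2 differences between different probe sets of a gene, was 0.25 for MDS-L over 6983 genes and 0.26 for SKM-1 over 7079 genes. It leaves out variation between cultures, and single arrays limit how precise any value here can be. A lower share of cycling cells and less RNA per cell cannot be told apart in these bulk samples.

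In MDS-L cells most of the replication genes were at least 2-fold lower with DAC, and in SKM-1 cells 0 were. All 45 genes lay below 0 in MDS-L as deposited, though quantile normalization put ORC4 at 0.09 and POLE at 0.02. The median over probe sets put ORC4 at 0.12, and the uniquely matching probe set of RPA1, the one that matches a single transcript, gave 0.21. That of ORC3 gave 0.05 only because its DAC value of 4.72 was raised to the background of 5.07. Its unraised difference was -0.29. The median log2 difference of the 45 genes was -1.34 against 0.04 for all 12696 measured genes. At least 2-fold lower were 30 of the 45, where 3.18% of all measured genes were, and 0 were at least 2-fold higher, where 3.62% of all genes were. At least 3-fold lower were 12 of the 45, where 0.709% of all genes were. In SKM-1 the median was -0.09 against 0.05 for all 12700 measured genes, with 26 genes below 0 and 19 above. This median depends on the probe set: it was -0.37 by the uniquely matching probe sets, by which 15 members could be measured. It was -0.23 over the 105 member probe sets above background on both SKM-1 arrays. For the 29 members with several such probe sets it was -0.21 by the brightest and -0.45 by the others. In SKM-1, 0 of 45 were at least 2-fold lower, where 1.43% of all genes were, and 1 was at least 2-fold higher, where 2.72% were. Thus 0 of 45 passed 2-fold in the same direction in both lines, where 0.159% of 11983 genes were lower and 0.384% were higher in both.

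**Figure D1:**
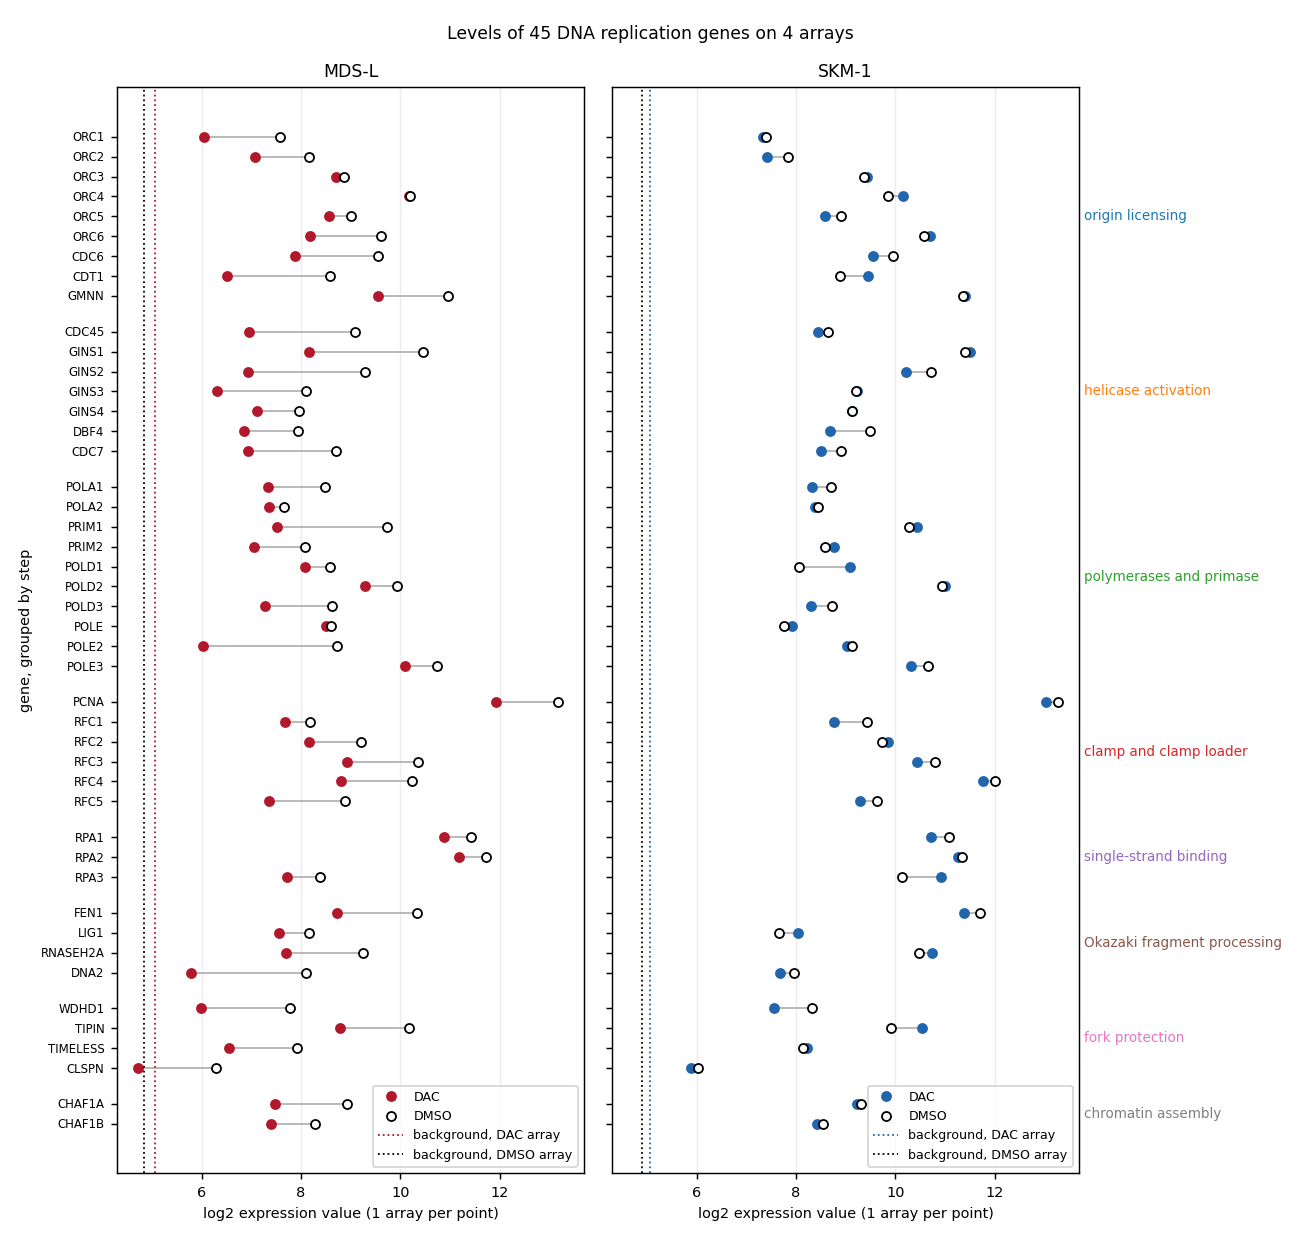
Log2 expression value of each of the 45 genes (horizontal axis, 1 array per point), with MDS-L on the left and SKM-1 on the right, DAC as filled points, DMSO as open points, and the background level of each array as a dotted line. In MDS-L the DAC point lies left of the DMSO point for all 45 genes. Under other settings ORC4, POLE and RPA1 lie right of it, and ORC3 does so only by a value raised to background. In SKM-1 the DAC point lies left for 26 genes and right for 19.

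The E2F motif was searched as TTTCCCGC, TTTCGCGC, TTTGCCGC and TTTGGCGC on both strands of the RefSeq promoter window of each gene (GRCh38.p14, 250 bases before to 50 after the annotated start, first listed window of a gene). The windows are shown because many of these genes were lower together in MDS-L. Of the 40 members in the promoter table, 14 (35%) held one of these words, against 3.33% of the 27305 genes in the table and 5.24% of 10314 genes measured in MDS-L. GINS4, POLD3, RPA2, RPA3 and DNA2 are not in it. Each of the 14 held a single match, whose first base lay between -137 and 8 from the start. The 14 stretches of 30 bases follow, read along the gene, with the matching letters in capitals.
ORC3 (chr6:87590112-87590141, plus strand): cgcgagggcgcGCGGGAAAtcccgagtgca
CDC6 (chr17:40287875-40287904, plus strand): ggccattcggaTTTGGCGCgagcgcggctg
CDT1 (chr16:88803743-88803772, plus strand): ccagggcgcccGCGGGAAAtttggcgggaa
GINS1 (chr20:25407667-25407696, plus strand): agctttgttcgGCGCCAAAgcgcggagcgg
GINS2 (chr16:85688967-85688996, minus strand): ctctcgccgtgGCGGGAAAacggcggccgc
GINS3 (chr16:58392455-58392484, plus strand): cgtccccgggcGCGGGAAAcgagtttcaat
POLA1 (chrX:24693770-24693799, plus strand): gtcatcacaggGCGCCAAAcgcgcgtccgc
POLA2 (chr11:65261898-65261927, plus strand): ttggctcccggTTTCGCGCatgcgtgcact
POLE (chr12:132687342-132687371, minus strand): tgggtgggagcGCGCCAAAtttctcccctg
POLE2 (chr14:49688201-49688230, minus strand): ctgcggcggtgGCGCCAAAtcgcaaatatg
PCNA (chr20:5126663-5126692, minus strand): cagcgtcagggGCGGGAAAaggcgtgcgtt
RFC3 (chr13:33818083-33818112, plus strand): atttggagctcGCGGGAAAacttgtctctg
LIG1 (chr19:48170440-48170469, minus strand): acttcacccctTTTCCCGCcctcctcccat
CLSPN (chr1:35769965-35769994, minus strand): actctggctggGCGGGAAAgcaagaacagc
These exact words did not sort the members by their difference in MDS-L. They stood in 10 of 28 members that were at least 2-fold lower (35.7%) and in 4 of 12 others (33.3%), and the median difference was -1.33 with a match and -1.38 without. With any listed window of a gene in place of the first, 17 of the 40 held a match, and 9 of the 40 have more than 1 window. Of all 35116 listed windows 1164 held a match, and the share of all genes by any window was not counted. A match is a description of letters and does not show that a factor binds there. Only these spellings were searched, so a window without a match was not shown to lack an E2F site. The split therefore cannot compare members with and without such a site.

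Origin licensing genes were mostly lower with DAC in MDS-L, with 6 of 9 at least 2-fold lower and a median of -1.41, whereas their median in SKM-1 was 0.04. CDT1, which loads the MCM helicase and carries a match just upstream of its start, read 6.51 with DAC against 8.58 with DMSO in MDS-L, a 4.19-fold lower level. In SKM-1 it read 9.46 with DAC against 8.88 with DMSO, a log2 difference of 0.58 in the other direction. Its 3 probe sets went the same way in each line, between -1.06 and -2.07 in MDS-L and between 0.58 and 0.91 in SKM-1. The gene of its inhibitor GMNN read 9.56 with DAC against 10.97 with DMSO in MDS-L, and 11.41 against 11.37 in SKM-1. CDC6, the ATPase that joins ORC at origins, was 3.18-fold lower in MDS-L, with 7.87 on the DAC array and 9.54 on the DMSO array. In SKM-1 CDC6 read 9.55 with DAC and 9.95 with DMSO.

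The subunits of ORC differed among themselves in MDS-L. ORC1, the subunit whose abundance is known to cycle in human cells, read 6.04 with DAC against 7.59 with DMSO, and ORC6 read 8.19 against 9.61. ORC2 read 7.09 with DAC against 8.15 with DMSO, just past 2-fold. These 3 subunits were thus 2.10- to 2.92-fold lower. ORC3 read 8.70 with DAC and 8.87 with DMSO, and ORC4 read 10.18 with DAC and 10.19 with DMSO, so both lay within 1 pooled SD of 0. ORC5 lay between these groups at -0.44. In SKM-1, ORC1 read 7.35 with DAC and 7.39 with DMSO, and ORC6 read 10.69 with DAC and 10.58 with DMSO. ORC2 read 7.42 with DAC against 7.85 with DMSO, ORC3 9.43 against 9.37 and ORC4 10.16 against 9.85. By their brightest probe sets all 6 ORC genes in SKM-1 lay between -0.42 (ORC2) and 0.31 (ORC4). Over all their probe sets above background there, ORC2 ran from -0.97 to -0.42 and ORC5 from -0.76 to -0.29. ORC3 ran from -0.31 to 0.18 and ORC4 from 0.12 to 0.63.

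Genes that activate the helicase had the most negative median of all steps in MDS-L, -1.79, and 6 of 7 were at least 2-fold lower. GINS2 read 6.94 with DAC against 9.29 with DMSO in MDS-L, a 5.09-fold lower level, and 10.21 against 10.73 in SKM-1. GINS1 read 8.17 with DAC against 10.46 with DMSO in MDS-L, 4.90-fold lower, and 11.50 against 11.40 in SKM-1. GINS3 was 3.45-fold lower in MDS-L, where it read 6.32 with DAC and 8.11 with DMSO, and it read 9.23 with DAC and 9.21 with DMSO in SKM-1. These 3 subunits each hold a motif match printed above, and GINS2 ranked 13 from the most negative difference among all measured genes of MDS-L. GINS4, the remaining subunit, read 7.12 with DAC and 7.97 with DMSO in MDS-L, 1.80-fold lower, and 9.14 with DAC and 9.13 with DMSO in SKM-1. Its 3 probe sets above background gave -0.85 to -0.93 in MDS-L.

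CDC45, which joins MCM and GINS in the active helicase, read 6.96 with DAC against 9.09 with DMSO in MDS-L, and 8.44 against 8.64 in SKM-1. The level in MDS-L was 4.40-fold lower with DAC, and all 3 of its probe sets were at least 4-fold lower there. In SKM-1 the 3 probe sets of CDC45 lay between -0.94 and -0.21, the last being the brightest. CDC7, the kinase that fires origins, was 3.44-fold lower in MDS-L, with 6.93 on the DAC array and 8.72 on the DMSO array. In SKM-1 CDC7 read 8.52 with DAC and 8.90 with DMSO. DBF4, its activating partner, read 6.85 with DAC against 7.94 with DMSO in MDS-L and 8.69 against 9.50 in SKM-1. With DAC, DBF4 was thus lower by 2.13-fold in MDS-L and by 1.75-fold in SKM-1, there the most negative difference of the 45 genes.

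Polymerase and primase genes differed most among themselves, and 5 of 10 were at least 2-fold lower in MDS-L (median -0.83, against 0.01 in SKM-1). POLE2, the second subunit of DNA polymerase epsilon, had the most negative difference of the 45 genes. It read 6.03 with DAC against 8.72 with DMSO in MDS-L, a 6.45-fold lower level, and 9.04 against 9.13 in SKM-1. It ranked 3 from the most negative of the 12696 genes measured in MDS-L. POLE, the catalytic subunit of the same enzyme, read 8.51 with DAC and 8.60 with DMSO in MDS-L, a difference of -0.09, and 7.93 with DAC and 7.76 with DMSO in SKM-1. POLE and POLE2 have 1 probe set each. The third measured subunit, POLE3, a histone-fold protein that also serves chromatin complexes, was at -0.63 in MDS-L and -0.34 in SKM-1. The 3 subunits therefore spanned 2.59 log2 units in MDS-L, the widest range of any of the complexes measured, and 0.51 in SKM-1.

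The promoter windows of POLE2 and POLE are printed whole because these subunits of one enzyme lay furthest apart in MDS-L although both hold the same word, GCGCCAAA, in capitals. The window of PRIM1, the gene of the catalytic primase subunit, is shown beside them. PRIM1 was more than 4-fold lower, and its window holds none of the exact words searched, though other spellings were not searched.
POLE2 (chr14:49688165-49688464, minus strand): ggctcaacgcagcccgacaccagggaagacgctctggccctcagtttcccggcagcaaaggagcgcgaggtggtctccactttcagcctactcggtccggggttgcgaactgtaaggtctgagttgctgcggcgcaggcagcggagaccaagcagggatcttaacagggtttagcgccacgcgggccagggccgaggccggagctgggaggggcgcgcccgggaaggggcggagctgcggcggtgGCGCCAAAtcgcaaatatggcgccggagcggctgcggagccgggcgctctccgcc
POLE (chr12:132687293-132687592, minus strand): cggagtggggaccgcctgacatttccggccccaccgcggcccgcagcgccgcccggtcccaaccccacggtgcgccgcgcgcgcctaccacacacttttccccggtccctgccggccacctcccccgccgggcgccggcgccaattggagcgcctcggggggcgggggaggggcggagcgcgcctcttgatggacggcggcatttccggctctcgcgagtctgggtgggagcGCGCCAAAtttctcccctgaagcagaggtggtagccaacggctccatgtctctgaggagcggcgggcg
PRIM1 (chr12:56752274-56752573, minus strand): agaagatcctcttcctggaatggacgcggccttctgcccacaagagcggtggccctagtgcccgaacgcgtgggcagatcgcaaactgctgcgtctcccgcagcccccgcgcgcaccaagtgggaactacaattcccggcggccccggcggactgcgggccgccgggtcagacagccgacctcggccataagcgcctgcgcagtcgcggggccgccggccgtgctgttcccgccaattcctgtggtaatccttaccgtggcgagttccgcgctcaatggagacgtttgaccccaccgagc

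PRIM1 read 7.52 with DAC against 9.74 with DMSO in MDS-L, a 4.65-fold lower level, and 10.44 against 10.27 in SKM-1. PRIM2, the large primase subunit, read 7.06 with DAC against 8.08 with DMSO in MDS-L, and 8.76 against 8.59 in SKM-1. POLA1, the catalytic subunit of polymerase alpha, read 7.34 with DAC against 8.48 with DMSO in MDS-L and 8.33 against 8.70 in SKM-1. These 3 genes were at least 2-fold lower in MDS-L. POLA2, the accessory subunit, read 7.36 with DAC and 7.67 with DMSO in MDS-L and 8.39 with DAC and 8.44 with DMSO in SKM-1. Its second probe set gave -1.54 in MDS-L, so the value for POLA2 depends on the probe set.

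POLD1, the catalytic subunit of DNA polymerase delta, was the only one of the 45 genes that passed 2-fold in SKM-1, and it did so upward. It read 9.09 with DAC against 8.07 with DMSO in SKM-1, a 2.02-fold higher level, from a single probe set. In MDS-L POLD1 read 8.08 with DAC against 8.59 with DMSO. Centring each line on the median of all its genes put POLD1 in SKM-1 at 0.96, under 2-fold. POLD3, the accessory subunit, read 7.28 with DAC against 8.62 with DMSO in MDS-L, 2.53-fold lower, and 8.30 against 8.73 in SKM-1. POLD2 was 1.55-fold lower in MDS-L and lay at 0.07 in SKM-1.

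**Figure D2:**
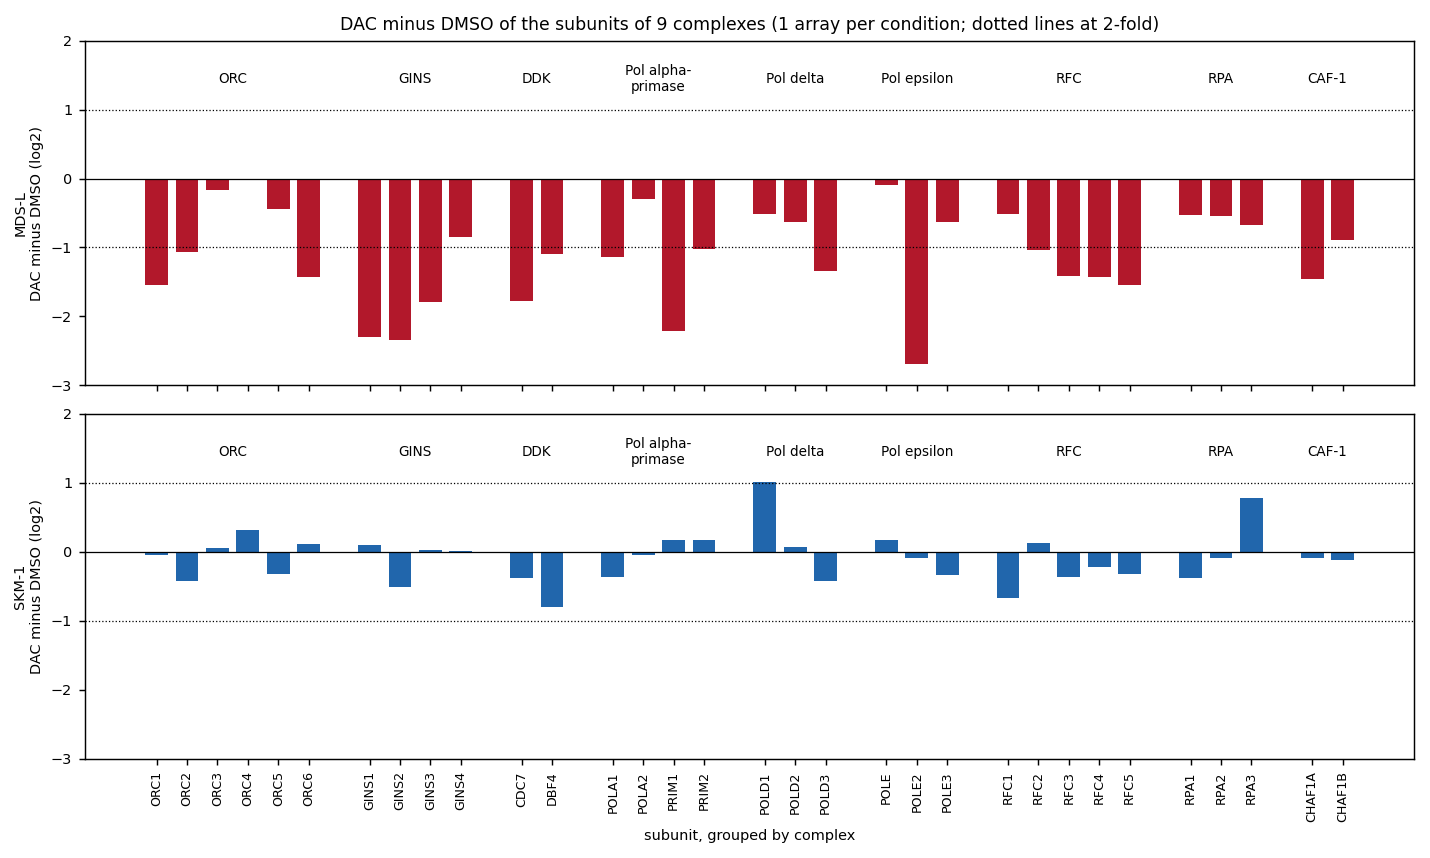
Log2 difference, DAC minus DMSO, of each subunit of 9 complexes (bars from 0, 1 array per condition), with MDS-L above and SKM-1 below and dotted lines at 2-fold. In MDS-L the bars of one complex reach different depths, from -0.09 for POLE to -2.69 for POLE2 in polymerase epsilon, while the 3 RPA bars lie between -0.53 and -0.67.

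PCNA, the sliding clamp that holds polymerases on DNA, read 11.93 with DAC against 13.18 with DMSO in MDS-L, 2.37-fold lower, and 13.04 against 13.27 in SKM-1. A second, dimmer probe set of PCNA gave -0.68 in MDS-L and -0.88 in SKM-1, in the same direction but not in the same order. The clamp loader RFC, which opens PCNA and places it on DNA, had 4 of 5 subunits at least 2-fold lower in MDS-L. RFC5 read 7.36 with DAC against 8.90 with DMSO in MDS-L and 9.30 against 9.63 in SKM-1. RFC4 read 8.81 with DAC against 10.24 with DMSO in MDS-L and 11.78 against 12.00 in SKM-1. RFC3 read 8.94 with DAC against 10.36 with DMSO in MDS-L and 10.43 against 10.80 in SKM-1. The small subunits RFC3 to RFC5 were thus 2.67- to 2.90-fold lower in MDS-L. RFC2 was less so at 2.06-fold, with 8.16 on the DAC array and 9.20 on the DMSO array of MDS-L, against 9.85 and 9.73 in SKM-1. One RFC5 probe set went the other way, at 0.60 in MDS-L and 0.43 in SKM-1.

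By the brightest probe sets, RFC1, the large subunit of the loader, was the one gene of the 45 with a more negative difference in SKM-1 than in MDS-L. It read 7.67 with DAC against 8.19 with DMSO in MDS-L, a difference of -0.52, and 8.77 against 9.44 in SKM-1, a difference of -0.67. The gap between these differences, 0.15, is smaller than the pooled SD between probe sets. Other RFC1 probe sets had the reverse order, at -1.08 and -0.56 in MDS-L against -0.65 and -0.51 in SKM-1. Which line had the more negative RFC1 difference thus depends on the probe set.

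The single-strand binding protein RPA, which coats unwound DNA in replication and in repair, was the only step where 0 members passed 2-fold in MDS-L. RPA1 read 10.89 with DAC and 11.42 with DMSO in MDS-L, and 10.71 with DAC and 11.09 with DMSO in SKM-1. RPA2 read 11.18 with DAC and 11.73 with DMSO in MDS-L, and 11.26 with DAC and 11.35 with DMSO in SKM-1. The 3 subunits lay within 0.13 log2 units of each other in MDS-L, near -0.55, and spread over 1.16 in SKM-1. RPA3, the smallest subunit, accounted for that spread. It read 7.71 with DAC against 8.38 with DMSO in MDS-L, but 10.91 against 10.13 in SKM-1, where it was 1.72-fold higher. The other RPA2 probe sets gave -0.78 and -1.18 in MDS-L and -0.69 and -0.90 in SKM-1, and a dim RPA1 probe set gave 0.21 in MDS-L and 0.42 in SKM-1.

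Of the Okazaki fragment genes, 3 of 4 were at least 2-fold lower in MDS-L (median -1.57) and 0 of 4 in SKM-1 (median -0.01). DNA2, a nuclease and helicase that trims long flaps, read 5.78 with DAC against 8.11 with DMSO in MDS-L and 7.68 against 7.97 in SKM-1. The MDS-L level was 4.99-fold lower. FEN1, the main flap nuclease, read 8.74 with DAC against 10.34 with DMSO in MDS-L, 3.04-fold lower, and 11.39 against 11.72 in SKM-1. RNASEH2A, the catalytic subunit of ribonuclease H2, which removes RNA from DNA, read 7.70 with DAC against 9.25 with DMSO in MDS-L. In SKM-1 RNASEH2A read 10.74 with DAC and 10.47 with DMSO. LIG1, the ligase that seals the nicks, was 1.53-fold lower in MDS-L (7.55 with DAC and 8.17 with DMSO) and 1.29-fold higher in SKM-1 (8.04 with DAC and 7.67 with DMSO). Its 6 probe sets agreed in sign, between -0.35 and -0.64 in MDS-L and between 0.33 and 0.42 in SKM-1.

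All 4 fork protection genes were at least 2-fold lower in MDS-L (median -1.38), and their median in SKM-1 was -0.03. WDHD1, which ties polymerase alpha to the helicase, read 5.99 with DAC against 7.78 with DMSO in MDS-L and 7.56 against 8.32 in SKM-1. It was lower with DAC in both lines, by 3.47-fold in MDS-L and by 1.69-fold in SKM-1. TIMELESS and TIPIN form a dimer that steadies the fork. TIPIN read 8.79 with DAC against 10.18 with DMSO in MDS-L and 10.54 against 9.92 in SKM-1. TIMELESS read 6.55 with DAC against 7.92 with DMSO in MDS-L and 8.23 against 8.15 in SKM-1. The dimer partners were close in MDS-L, at -1.39 for TIPIN and -1.37 for TIMELESS, and less so in SKM-1, at 0.63 and 0.08. A uniquely matching TIPIN probe set gave -0.37 in SKM-1, so the direction of TIPIN there depends on the probe set. CLSPN, the claspin gene, whose product carries the checkpoint signal to CHEK1, read 4.73 with DAC, under the background of 5.07, against 6.28 with DMSO in MDS-L. Its level was at least 2.32-fold lower there, and it read 5.88 with DAC and 6.04 with DMSO in SKM-1.

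The chromatin assembly factor CAF-1 places histones on new DNA behind the fork. CHAF1A, its large subunit, read 7.49 with DAC against 8.94 with DMSO in MDS-L, 2.73-fold lower, and 9.23 against 9.32 in SKM-1. CHAF1B was 1.86-fold lower in MDS-L, with 7.39 on the DAC array and 8.28 on the DMSO array, and read 8.43 with DAC and 8.55 with DMSO in SKM-1.

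**Figure D3:**
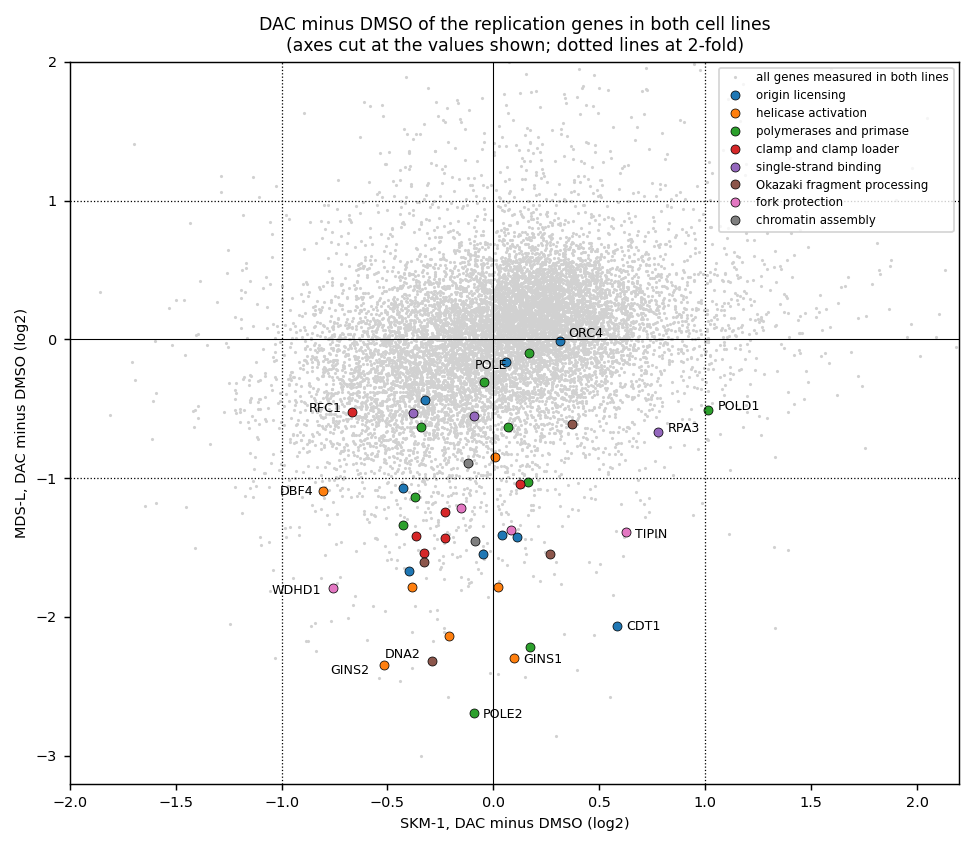
Log2 difference, DAC minus DMSO, in SKM-1 (horizontal axis) and in MDS-L (vertical axis) for the 45 genes, colored by step, over all genes measured in both lines in gray, with dotted lines at 2-fold. The 45 genes spread downward along the MDS-L axis from -0.01 to -2.69 and between -0.81 and 1.02 along the SKM-1 axis.

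In SKM-1, 22 of the 45 differences lay within 1 pooled SD of 0, against 3 in MDS-L (ORC3, ORC4 and POLE). Of the others in SKM-1, 16 were below and 7 above. These counts by pooled SD were not made over all genes. In SKM-1, 3 of the 45 were at least 1.5-fold lower (DBF4, WDHD1 and RFC1), where 1163 of all 12700 genes were. At least 1.5-fold higher were also 3 of the 45 (POLD1, RPA3 and TIPIN), where 1227 of 12700 were. Neither share of the members was above that of all genes. An effect of DAC common to both lines was tested with limma across 11983 genes, with cell line as a block. Of the 45 genes, 0 had an adjusted p under 0.05, as did 0% of all genes, and the lowest adjusted p of a member was 0.434 (limma, Benjamini-Hochberg). WDHD1 had a common log2 difference of -1.28 with an SE of 0.31 and an unadjusted p of 0.00926 in this limma fit, and was lower with DAC in both lines. Lower with an unadjusted p under 0.05 were 13 of 45, where 5.92% of all genes were, and 0 were higher, where 5.52% of all genes were. With 1 residual degree of freedom the fit has little information on the spread between samples.

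With DMSO in place of DAC the lines also differed in part of the set. On the DMSO arrays the median of MDS-L minus SKM-1 was -0.40 against -0.01 for all genes, with 10 of 45 genes lower in MDS-L by 2-fold or more and 0 higher. Among all 13068 genes measured on either DMSO array, 12.1% were lower and 12.4% higher, so this count stands less far from the background than that after DAC. The 10 were GINS2, GINS3, GINS4, DBF4, POLD2, RFC1, RFC4, RPA3, FEN1 and RNASEH2A, with RFC4 at -1.76 and RPA3 at -1.75 the most negative. Highest in MDS-L over SKM-1 was POLE at 0.85. On the DAC arrays the median was -1.68, and 34 of 45 genes were lower in MDS-L by 2-fold or more and 0 higher, where 15.6% and 15% of all 13086 genes were lower and higher. GINS1 had the most negative difference there, -3.33, against -0.94 on the DMSO arrays, and CDT1 was at -2.95 with DAC against -0.30 with DMSO. Above 0 with DAC were ORC4, POLE and RPA1. The comparisons with DAC and with DMSO rest on the same 4 arrays as the differences within each line and add no independent evidence of them.

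**Figure D4:**
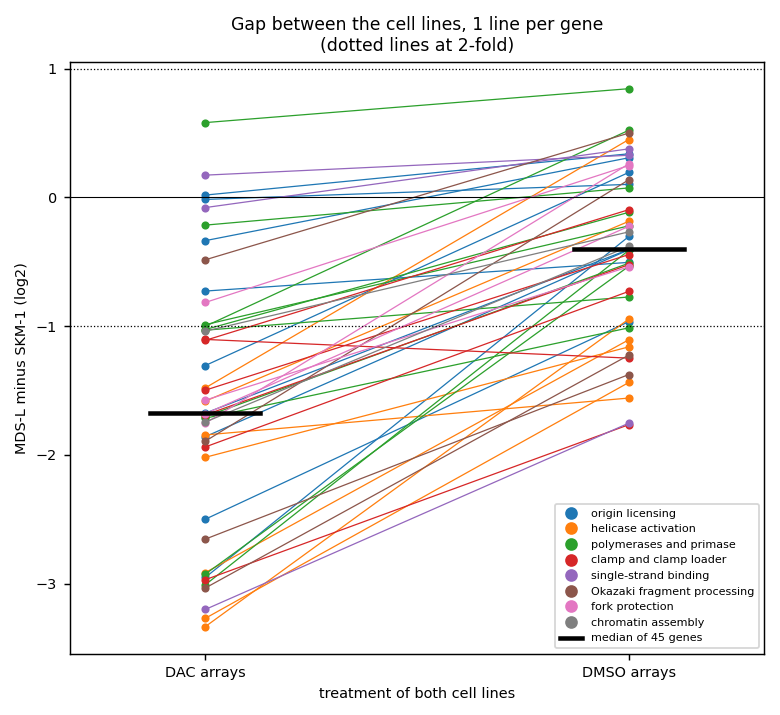
Log2 difference MDS-L minus SKM-1 of the 45 genes on the DAC arrays (left) and on the DMSO arrays (right), 1 line per gene colored by step, with black bars at the medians and dotted lines at 2-fold. The median is -1.68 with DAC and -0.40 with DMSO, and the one gene that lies lower with DMSO than with DAC is RFC1.

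A gene can be represented by several probe sets, and these gave a similar picture in MDS-L and a less uniform one in SKM-1. In MDS-L, 99 of the 115 probe sets lay above background on both arrays. Of these, 55 were at least 2-fold lower, where 3.87% of all such probe sets were, and 0 were at least 2-fold higher, where 2.3% were. Below 0 were 95 of the 99. In SKM-1, 105 probe sets lay above background on both arrays, 67 were below 0 and 38 above, and their median was -0.23. There, 0 were at least 2-fold lower, where 2.78% of all such probe sets were, and 1 was at least 2-fold higher, where 2.1% were. Probe sets of one gene went in opposite directions for 3 of 27 genes in MDS-L (ORC4, RFC5 and RPA1). In SKM-1 they did so for 7 of 29 (ORC3, GINS1, PRIM2, RFC5, RPA1, TIPIN and CHAF1A). More than 1 such probe set was available for 16 of the 30 genes that passed 2-fold in MDS-L, and 11 of them passed it by every one. ORC2, DBF4, PCNA, RFC5 and CHAF1A did not, while POLA2, RFC1 and RPA2 were at least 2-fold lower by another probe set only. A total of 12 members have 1 probe set.

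**Figure D5:**
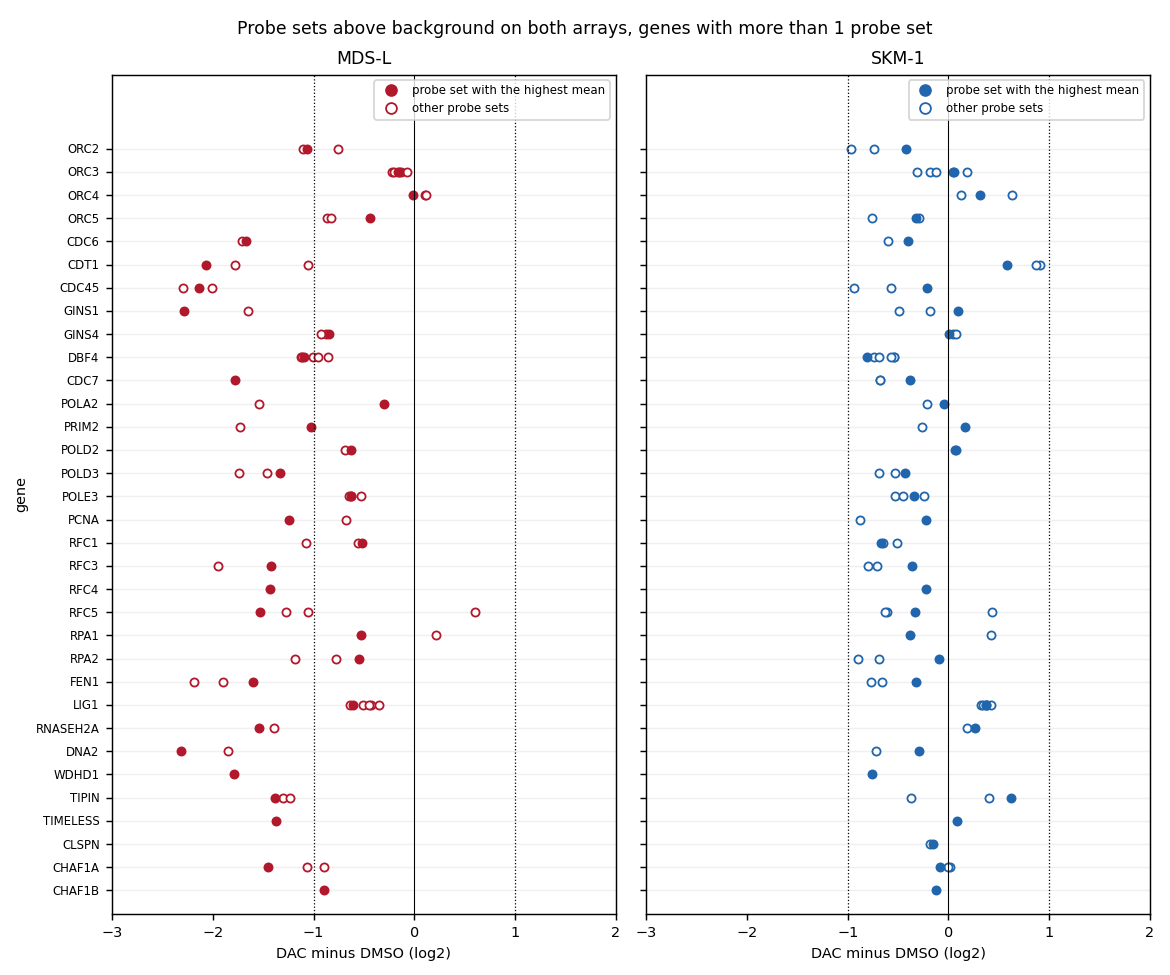
Log2 difference, DAC minus DMSO, of every probe set above background on both arrays (horizontal axis) for the genes with more than 1 probe set, with MDS-L on the left and SKM-1 on the right, the probe set of highest mean filled and the others open, and dotted lines at 2-fold. The 12 genes with 1 probe set are not drawn. Counted together with them, 95 of 99 MDS-L probe sets were below 0, against 67 of 105 for SKM-1.

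Related genes outside the set were lower in MDS-L to different extents. Of 7 genes of the MCM helicase and its partners, 5 were at least 2-fold lower in MDS-L (median -1.46), with MCM10 at -2.08 and MCM6 at -2.04, and 0 in SKM-1 (median -0.11). Of 26 measured genes of a list of 27 other origin and fork proteins, 9 were at least 2-fold lower in MDS-L (median -0.87) and 0 in SKM-1 (median -0.17). The most negative in MDS-L were CHEK1 at -2.17, DTL at -2.01 and NASP at -1.91. In SKM-1, 2 of the 26 were at least 2-fold higher, POLE4, a further polymerase epsilon subunit, at 1.57 and RNASEH2C, a partner of RNASEH2A, at 1.30. Of 12 translesion and repair polymerases, 1 was at least 2-fold lower in MDS-L, POLQ at -1.41, with a list median of -0.10. Of 9 mitochondrial replication genes 0 were, with a median of -0.44. In SKM-1 the medians were -0.04 for the translesion and repair polymerases and -0.32 for the mitochondrial genes, with 0 members past 2-fold.

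Proliferation markers were lower in MDS-L beside the replication genes. All 9 of 9 listed markers were at least 2-fold lower with DAC in MDS-L (median -1.38), with RRM2 at -2.86 and TYMS at -2.43, and 0 of 9 in SKM-1 (median 0.15). Their part in the differences of the replication genes was not tested. Myeloid and progenitor markers were above background for 5 of 5 genes on both MDS-L arrays, with KIT at 8.84 with DAC and 9.15 with DMSO. In SKM-1 they were so for 4 with DAC and 3 with DMSO. KIT was under background on both SKM-1 arrays, at 3.59 with DAC and 3.25 with DMSO. MPO read 9.76 with DAC and 10.01 with DMSO there, and HLA-DRA read 5.44 with DAC and 3.77, under background, with DMSO. The largest differences among these markers were CD34 at -0.84 in MDS-L and ANPEP at 0.88 in SKM-1. T cell markers were above background for 5 of 5 genes with DAC against 3 with DMSO in MDS-L (summed level 30.6 against 27.0), with CD2 at 6.28 against 4.69, and for 3 on each array of SKM-1. Fibroblast markers were above it for 2 of 5 with DAC against 1 with DMSO in MDS-L, with COL3A1 at 6.96 against 4.48, and for 1 on each SKM-1 array. B cell markers were above it for 3 of 4 and erythroid markers for 2 of 2 on every array. The part of these markers in the results was not tested.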

How the data were processed

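RNA of MDS-L and SKM-1 cells was hybridized to Affymetrix PrimeView arrays, with 1 array for each condition. Deposited are the authors' log2 expression values of 49395 probe sets on each array. The paper's methods name RMA in Partek Genomics Suite, with no version, and RNeasy extraction, whereas the submitters' notes name MAS5 and the labels Trizol. The range (2.11 to 14.99) and the like distributions of the arrays (sorted values at most 0.18 apart) are those of log2 values normalized between arrays, and they were used as deposited. Scanning, background correction and normalization were the authors' and were not repeated.

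The array annotation names 46826 probe sets, 44994 with 1 gene symbol and 1832 with several, which were left out. The probe set brightest on average over the 4 arrays stood for each of 18132 genes. The 90th percentile of 367 olfactory receptor probe sets was the background of an array, values under it were raised to it, and a decrease to a raised value is written "at least". A gene was measured in a line if above background on at least 1 of its 2 arrays. Differences are DAC minus DMSO and were counted at 2-fold with no test. The common effect was fitted with limma 3.58.1 in R 4.3.3 on the log2 values of 11983 genes, with cell line as a block, a variance trend, two-sided tests and adjusted p-values (Benjamini-Hochberg) called under 0.05. This fit and the counts were tested on simulated data. Other steps used Python 3.11.15, numpy 2.4.6, pandas 2.3.3 and matplotlib 3.10.9. No column of the table was left unused.

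The alternatives were fold thresholds of 1.5 and 3, a background at the 99th percentile, no background, quantile normalization, centring, and other choices of probe set. Precision is limited by signal over background and by single arrays, which give no interval. Promoter sequences are from RefSeq (GRCh38.p14). The members, the related gene lists and the cell type markers were chosen with earlier results of these data known. Named with values on all arrays are members past 2-fold in either line and, of each step, the 2 with the smallest difference in MDS-L. Of the other lists, up to 3 genes with the largest difference in a line are named. KIT and MPO were named outside this rule.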

Additional observations from a re-analysis of the deposited data

Results flagged for a closer look

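For 6 members the difference between DAC and DMSO lay more than 1 pooled SD between probe sets below 0 in MDS-L and more than 1 above 0 in SKM-1, and the difference between the cell lines was not tested, since each condition has 1 array. CDT1 was at -2.07 in MDS-L against 0.58 in SKM-1, the widest such gap. POLD1 was at -0.51 in MDS-L against 1.02 in SKM-1, and RPA3 was at -0.67 in MDS-L against 0.78 in SKM-1, both from a single probe set. LIG1 was at -0.61 in MDS-L against 0.37 in SKM-1, and RNASEH2A was at -1.54 in MDS-L against 0.27 in SKM-1, with all probe sets of both genes in the same directions. TIPIN was at -1.39 in MDS-L against 0.63 in SKM-1, and 1 of its 3 probe sets lay below 0 in SKM-1. The rule was applied to the members only, so how common such opposite directions are among all genes is not known. Their cause was not tested.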

How the results depend on the processing

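No member that passed 2-fold changed direction under any alternative run. Among smaller differences, 4 members in MDS-L (ORC3, ORC4, POLE and RPA1) and 10 in SKM-1 changed sign under at least 1, the widest being RPA1, at 0.21 in MDS-L and 0.42 in SKM-1 by its uniquely matching probe set, TIPIN, at -0.37 in SKM-1 by its own, and GINS1, at -0.50 in SKM-1 by the median over probe sets. ORC3 changed sign only by a DAC value raised to background, and the unraised difference of that probe set was -0.29. The members' counts of 0 higher in MDS-L and 0 higher in both lines held under all of them. At 1.5-fold, 3 members were lower and 3 higher in SKM-1, where 1163 and 1227 of all 12700 genes were. Lower in both lines were 2 members, where 262 of 11983 genes were. Higher in MDS-L than in SKM-1 with DMSO was 1 member, where 2823 of 13068 genes were. At 3-fold, 12 members were lower in MDS-L, 0 were higher in SKM-1 and 2 were lower in MDS-L than in SKM-1 with DMSO. Centring left 0 higher in SKM-1. With the median over all probe sets of a gene (44 members measured), 1 was at least 2-fold lower in SKM-1 and 1 in both lines, WDHD1, and the MDS-L median was -1.08. With only those probe sets that match a single transcript, 15 members could be measured (13 on the DAC arrays). There, 10 were lower in MDS-L, 0 higher in SKM-1, 1 lower in MDS-L than in SKM-1 with DMSO and 7 with DAC, and the SKM-1 median was -0.37. Quantile normalization moved no count by over 1.5 times.

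Of the 30 members that passed 2-fold in MDS-L, 19 did so under every alternative that measured them. ORC1 and WDHD1 were under 2-fold with background at the 99th percentile, and by its uniquely matching probe set WDHD1 could be bounded only, since that probe set read 3.58 with DAC, under background, and 5.16 with DMSO in MDS-L, and the unraised difference was -1.59. ORC2, DBF4, PRIM2 and RFC2 lost the call with quantile normalization, and ORC2, PCNA, RFC3, RFC5, TIMELESS and CHAF1A with the median over probe sets. The lowest adjusted p of a member ran from 0.189 to 0.517 over the limma alternatives, of which the median over probe sets called 2 of 10531 genes and 0 members. The highest probe set with DMSO could be applied only within a line. The limma fit pairs DAC with DMSO within each cell line. Beyond that pairing by cell line, no paired analysis was possible because each condition has a single array and so no replicate numbers to pair, and for the same reason no replicate could be left out.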

Other observations

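In SKM-1 the probe set that stood for a member lay above the median of its other probe sets in 21 of 29 members (72.4%), against 57.2% of 7073 genes overall. The median difference was -0.21 by the probe set with the highest mean and -0.45 by the others. In MDS-L this was so for 13 of 27 members (48.1%), against 62.6% of 6977 genes. Members with several probe sets thus read lower in SKM-1 by their dimmer probe sets. Over all 7073 such genes in SKM-1 the medians were closer, at -0.04 by the probe set with the highest mean and -0.06 by the others. No reason for the shift in the members was tested.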
